A study of Homo sapiens with 8 samples.

Results

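The strongest LSD1-occupied regions common to both genotypes were described in MDA-MB-231 cells, a human triple-negative breast cancer cell line. LSD1 occupancy had been mapped by CUT&RUN in parental cells and in RCOR2-KO1 cells, in which RCOR2 was knocked out by CRISPR/Cas9, with 2 libraries of each genotype. The labels give no treatment for either genotype. The study's methods say that several knockout clones were mixed, after the steps for another cell line, and leave unclear whether this covers MDA-MB-231. The peak caller's input came from 4 libraries made with normal rabbit IgG. The members were chosen by the measured strength of the LSD1 summits themselves. A summit is the single base of highest signal in a peak. Summits of the 4 lists that lay at most 500 bp from a neighbour were joined into 1 region, and each region was ranked in a library by its strongest summit, as a percentile of that library's own list with 100 at the top. Regions at percentile 90 or above in all 4 libraries were taken. This gave 2296 regions, which are 3.37% of all 68148 regions and 6.40% of the 35861 regions with a summit in every list. The comparison set below is the other 33565 regions found in all 4 lists.

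LSD1 (KDM1A) removes methyl groups from lysine 4 of histone H3 and works in complexes with HDAC1, HDAC2 and a member of the CoREST family. The CoREST proteins, of which RCOR2 is one, hold LSD1 to nucleosomes, and LSD1 in such complexes is found both at promoters and at distal enhancers, where it trims active histone marks. LSD1 itself binds no particular DNA sequence, and transcription factors and the scaffold proteins bring it to its sites. The question of the comparison is whether the sites of strongest LSD1 occupancy differ between cells with and without RCOR2. The regions are given by their hg19 (GRCh37) coordinates, the build of the submitters' processing notes, because an annotation or genome sequence of that build was not used here. For the same reason no gene, exon, promoter or sequence is named beside them.

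The lists held 47354 to 54467 summits each. The sequencing depth was not given in the sources used here, and the −log10 values of the peak caller grow with depth. They are therefore printed as the data, and libraries are compared by rank, by percentile or after scaling to the list. Percentiles in turn depend on the length of the list. The mean percentile of the comparison set was 54.4 and 59.9 in the parental libraries and 56.4 in both KO1 libraries, highest in the longest list. The study's methods say that CUT&RUN was repeated (2 times), but neither they nor the labels say whether the replicates were separate cultures, so the spread between them may be technical. With 2 libraries against 2, an exact two-sided permutation test cannot give a p below 0.333.

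The members carried summits of high confidence in every library. Their median −log10 value was 86.2 and 108 in the parental libraries (replicates 1 and 2) and 96 and 84.2 in the KO1 libraries. The medians of the comparison set in the same order were 20.6, 26.8, 22.7 and 20.6. The median value of members was therefore 4.02 to 4.23 times that of the comparison set, and the ratio was nearly the same in each library. The rule requires the members to be higher. A −log10 value is a significance and does not measure the amount of LSD1 bound. They made up 4.22% to 4.85% of the summits of a list and held 16.5% to 17.5% of its summed −log10 value. The weakest member summit had a value of 58.0, 68.2, 62.0 and 55.0 in the same order of libraries, which is the level at which the top 10% of each list begins. These values chose the members and are a description without a test.

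**Figure D1:**
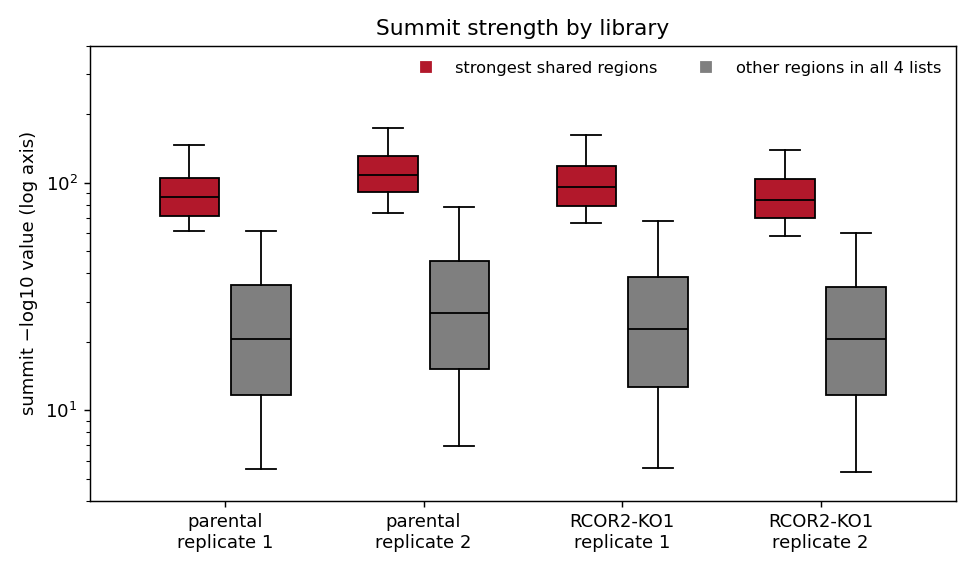
The −log10 value of the strongest summit (log axis) is shown for the 2296 strongest shared regions (red) and the 33565 other regions found in all 4 lists (grey) in each library. Boxes span the quartiles with the median as a line and whiskers span the 5th to the 95th percentile. The red medians lie at 84.2 to 108 and the grey medians at 20.6 to 26.8.

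The region at the head of the set was chr4:1317961-1318007. Its −log10 value was 328 and 269 in the parental libraries and 313 and 232 in the KO1 libraries, and it ranked 1, 4, 1 and 2 among the shared regions. It was the only region among the strongest 10 of all 4 libraries. Another region on the same chromosome, chr4:4765169-4765403, was next, with values of 195 and 303 in parental and 236 and 187 in KO1 cells. It was the strongest of all in parental replicate 2 and ranked 18 in parental replicate 1, and its ranks of 7 and 12 in the KO1 libraries lay between these.

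The third was chr10:80095701-80096029, with values of 239 and 219 in parental and 195 and 157 in KO1 cells. The fourth was chr6:133931130-133931166, with 211 and 191 in parental and 235 and 171 in KO1 cells. At chr20:49982863-49982919 the values were 167 and 225 in parental and 220 and 237 in KO1 cells. This region headed the list of KO1 replicate 2 and ranked 49 in parental replicate 1. Among the regions with the highest lowest percentile, chr1:43672899-43673069 ranked 2 in KO1 replicate 1 but 86, 79 and 63 in the other libraries.

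The 20 regions with the highest lowest percentile lay on 11 chromosomes. Chromosome 10 held chr10:80095701-80096029, chr10:49815112-49815167 and chr10:105518316-105518332. Chromosome 11 held chr11:35187840-35188234, chr11:34676025-34676483 and chr11:12222117-12222579. The others were chr14:71609818-71609830, chr14:93502920-93502953, chr19:45091836-45091918, chr19:59084841-59084854, chr20:55363472-55363550, chr8:128863924-128864463, chr22:30819570-30819721, chr5:172882022-172882120 and chr1:203527568-203528155 beside those already described. The last of the 20, chr1:203527568-203528155, still had a percentile of 99.80 and 99.74 in parental and 99.79 and 99.81 in KO1 cells. Over the 20, the −log10 value ranged from 152 to 328 and from 171 to 303 in the parental libraries and from 164 to 313 and from 139 to 237 in the KO1 libraries. No rank below 139 was reached by any of them in any library.

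At the other end, the members just inside the threshold were close to it in 1 library and higher in the others. At chr10:69913419-69913516 the percentile was 90 in parental replicate 1 and 97.79, 96.34 and 97.15 in the other libraries. The weakest library of both chr11:7041580-7041664 and chr12:27772420-27772444 was KO1 replicate 2, at 90.01 in each. Among regions just outside, chr17:37057181-37057399 stood at 99.13, 94.73 and 95.73 in the first 3 libraries and was just short of the threshold in KO1 replicate 2. A second, chr1:63989043-63989133, was at 98.63, 90.20 and 95.76 and reached 89.98 in parental replicate 2. The third, chr1:207063927-207064342, was just short of the threshold in parental replicate 1, at 90.43 in parental replicate 2 and at 99.02 and 99.66 in the KO1 libraries.

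Regions of the top 10% were shared more often the stronger they were. Of the 8570 regions at percentile 90 or above in at least 1 library, 26.8% were so in all 4. From the side of a single library, between 42.1% and 48.5% of its top 10% were members. In the band from percentile 90 to 92 the share of members was 14.9% to 21.9% depending on the library, in the band from 96 to 98 it was 57.2% to 60.7%, and from 99 upward it was 89.2% to 90.6%. Of the 247 regions among the strongest 100 of any library, 242 were members, and 16 were among the strongest 100 of all 4. The remaining 5 had a lowest percentile between 85.9 and 89.0.

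**Figure D2:**
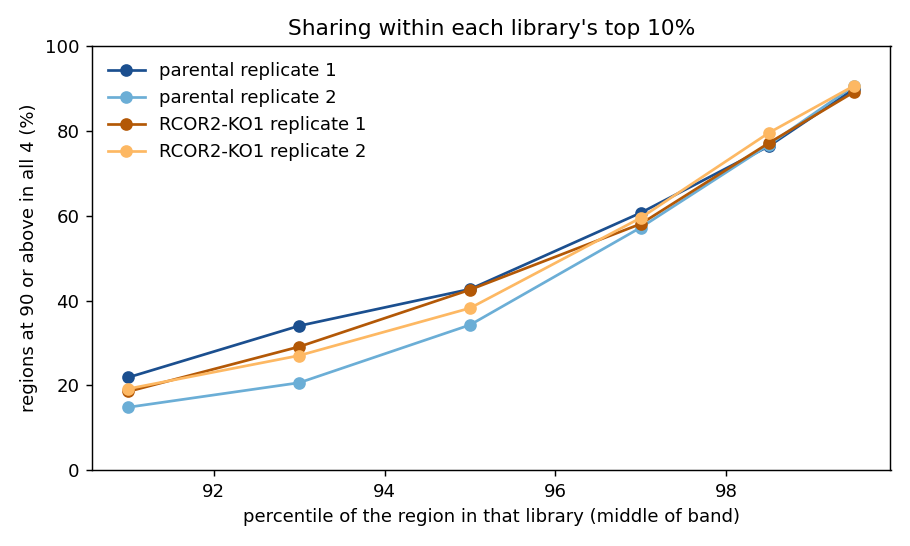
The share of regions that were at percentile 90 or above in all 4 libraries (%) is plotted against the middle of the percentile band in each library, with 1 line per library. All 4 lines climb from 14.9% to 21.9% at percentiles 90 to 92 to between 89.2% and 90.6% above percentile 99.

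A further 1431 regions reached percentile 90 in exactly 3 libraries. The library that fell short was the first parental replicate for 410 of them and the second for 258, the first KO1 replicate for 364 and the second for 399. In that library their median percentile was still 86.4 to 87.5, and 22 to 33 of them per library had no summit there at all. Parental replicate 2, which has the longest list, was the one least often missing. Another 1835 regions reached the top 10% in exactly 2 libraries. Of these, 455 did so in both parental libraries and neither KO1 library, and 411 in both KO1 libraries and neither parental library. The 4 pairs of a parental with a KO1 library accounted for 177 to 302 each. Of the 455, 35 had no summit in either KO1 list, and of the 411, 31 had none in either parental list. For the 4 pairs of a parental with a KO1 library, 8 to 20 regions had no summit in the remaining lists. The rule chose the 2296 regions by these same percentiles, so the counts are a description.

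The choice by strength did not use where the summit lay within a region. The joining within 500 bp does use summit positions, so it limits spans, distances and offsets. Every one of the 2296 members held exactly 1 summit in each list, so all had the same number of summits and none could be named for having most. The number of summits per member was 1 ± 0 in parental and 1 ± 0 in KO1 cells (SD, n = 2 libraries each), a difference of 0 that leaves the exact permutation test nothing to compare (p = 1). Of the 33565 other regions, 29 had more than 1 summit in some list. The smallest spacing of summits within a list was 339 to 495 bp, which leaves little room for more than 1 per region. The 4 summits of a member spanned 114 bp at the median, counted from the first to the last base, with a range from 4 to 811 bp. The span of the comparison set was 103 bp. The 4 summits of chr14:71609818-71609830 lay within 13 bp and those of chr4:1317961-1318007 within 47 bp, whereas those of chr1:203527568-203528155 lay within 588 bp, although all are among the 20 described above.

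The span was not narrowest at the strongest regions. Among all regions found in every list, ordered by their mean percentile, the median span was 178 bp up to percentile 20, 96 bp between 60 and 80, 102 bp between 90 and 95, 122 bp between 98 and 99, and 116.5 bp above 99. The scatter of summits between libraries was therefore least in regions of middling to high strength. The upper quartile of the span decreased from 408 bp in the weakest band to 184 bp between percentiles 80 and 90, and was 222 bp above 99.

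Summits of different genotypes lay as near to each other as replicates did. In members, the median distance between the summits of 2 libraries was 44 bp for the parental pair, 46 bp for the KO1 pair and 44 to 49 bp for the 4 pairs across genotypes. In the comparison set it was 44 to 46 bp for all pairs. Between 15.1% and 18.4% of members had summits within 10 bp in a pair of libraries, and between 16.2% and 17.8% had them over 150 bp apart.

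The offset of a library's summit was taken as its distance from the median position of the 4. Its median over the members was 23.5 and 22.3 bp in the parental libraries and 26 and 24 bp in the KO1 libraries, so the KO1 libraries were both above the parental ones. The means were 22.9 ± 0.884 bp and 25 ± 1.41 bp (SD, n = 2 libraries each), a difference of 2.13 bp (two-sided exact permutation test, p = 0.333, which is as low as this design can reach). The difference was 0.5 bp without parental replicate 2 and 4.5 bp without KO1 replicate 2. In those runs the members were chosen again and the median position came from fewer summits. The change therefore cannot be credited to the library left out alone. For regions at percentile 80 or above the difference was 0.5 bp. The offset of members minus that of the comparison set was 0.5 and -0.25 bp in the parental libraries and 3 and 1 bp in the KO1 libraries. This difference from the comparison set was positive in 3 of 4 libraries and averaged 1.06 ± 1.39 bp (SD, n = 4, exact sign-flip permutation test, two-sided, p = 0.25).

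Members lay in surroundings with more LSD1 regions. The distance to the nearest other region found in all 4 lists was 8594 bp at the median (quartiles 4974 and 18652 bp) for members and 12996 bp (5719 and 32711 bp) for the comparison set. Within 50 kb on either side there were 3.88 further shared regions on average around members and 2.70 around the others. Only 150 members (6.53%) had none within that distance, against 16.1% of the comparison set, and 860 members (37.5%) had 5 or more, against 19.8%. The same held in a wider window, with 25.1 and 20.5 shared regions within 500 kb. The share with 5 or more neighbours increased with strength, from 16.3% between mean percentiles 20 and 40 to 26.6% between 80 and 90, 31.8% between 90 and 95 and 44.0% between 98 and 99, and it was 40.6% above 99.

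Counted within each library's own list, members had 5.12 and 5.61 further summits within 50 kb in the parental libraries and 5.06 and 5.19 in the KO1 libraries. The comparison set had 3.55 and 4 in parental and 3.62 and 3.68 in KO1 libraries. The difference was positive in 4 of 4 libraries and averaged 1.53 ± 0.0733 summits (SD, n = 4, two-sided exact sign-flip permutation test, p = 0.125, which is as low as 4 libraries can reach). The 4 lists share most of their regions, so they are not 4 independent maps of the genome. Gene density, base composition and copy number along the genome may vary with these counts, and their part in them was not tested.

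**Figure D3:**
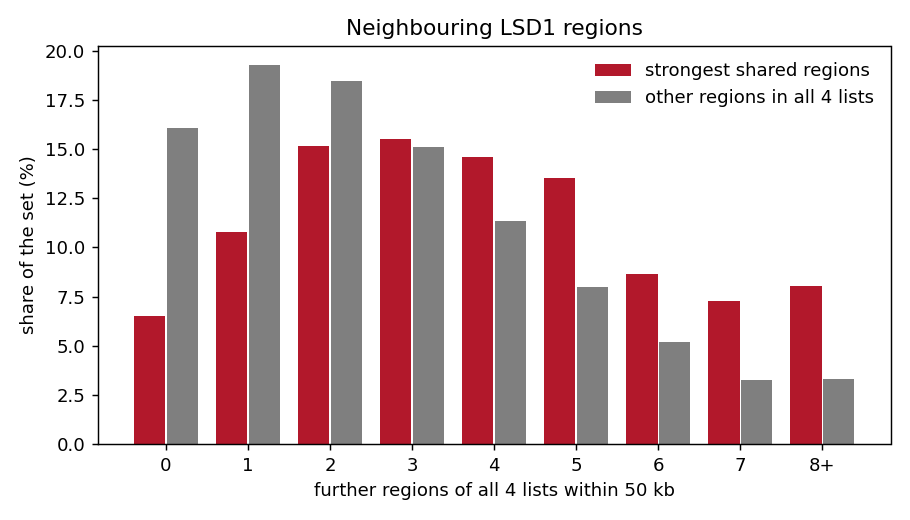
Bars give the share of each set (%) by the number of further regions of all 4 lists within 50 kb, for the 2296 strongest shared regions (red) and the 33565 others (grey); the last bar holds 8 or more. Red bars are lower than grey at 0, 1 and 2 neighbours and higher from 3 upward, with 6.53% against 16.1% at 0.

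A member's nearest shared neighbour was itself a member in 285 of 2296 cases (12.4%), and the nearest neighbour of a region of the comparison set was a member in 6.02%. With the neighbour within 10 kb the shares were 15.9% and 7.48%. When members were chained while the next was at most 50 kb away, 1475 members (64.2%) stood alone and 821 (35.8%) formed 328 stretches of 2 or more. Stretches of 4 or more numbered 32 and held 156 members. The stretches named here are those with the most members and were chosen after their values were seen.

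The chain with the most members was chr20:36738358-36846437, where 9 of 14 shared regions within 108 kb were members. Their mean percentile was 95.9 and 97.1 in the parental and 97.0 and 97.0 in the KO1 libraries, and 7 of the 9 were higher on average in KO1. Of all members, 48.9% were higher on average in KO1. The differences within this chain ran from -2.31 to 2.07 percentile points. The member with the highest lowest percentile, chr20:36781508-36781548, was at 99.03 in both parental libraries and at 99.41 and 99.07 in the KO1 libraries, with −log10 values of 114, 136, 140 and 110. The next chain, chr8:128822069-128962119, had 8 members among 12 shared regions in 140 kb, with mean percentiles of 98.4 and 97.7 in parental and 97.6 and 98.6 in KO1 cells. It contains chr8:128863924-128864463, which is among the 20 described above, at 163 and 183 in parental and 164 and 144 in KO1 cells.

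On chromosome 11, chr11:12185726-12257836 held 7 members among 11 shared regions in 72.1 kb, with mean percentiles of 98.7 and 98.6 in parental and 98.5 and 98.2 in KO1 cells. All 7 were above percentile 91 in every library, and chr11:12222117-12222579 was at 99.82 or above in each. A chain of equal number, chr3:45106409-45241709, had means of 95.9 and 95.2 in parental and 96.6 and 96.6 in KO1 cells. In 2 short chains, chr2:47261617-47304325 and chr6:11609596-11653602, all 5 shared regions were members.

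The chain chr16:57625373-57677544 held 5 members among 7 shared regions in 52.2 kb, and all 5 were lower on average in KO1. Its mean percentile was 99.1 and 99 in the parental libraries and 96.4 and 96.1 in the KO1 libraries, so these means did not overlap. Taken singly, both KO1 libraries lay below both parental ones at each member except chr16:57667768-57668315. Over all shared regions this was so in 22.5%. On chromosome 16 between 50 and 60 Mb the other shared regions had a median KO1 minus parental of -8.45 percentile points. There 2 of 15 members were higher in KO1, so the chain shared its direction with its surroundings. The values at chr16:57625373-57625440 were 151 and 150 in parental and 90.8 and 59.3 in KO1 cells. The percentiles there were 99.79 and 99.41 against 96.39 and 91.61. At chr16:57667768-57668315, by contrast, the percentiles were 98.26 and 98.21 in parental and 98.83 and 96.48 in KO1 cells and overlapped. At the other extreme stood members far from any other shared region. The most isolated was chr19:28284735-28284792, 922 kb from its nearest, at percentiles of 94.89 and 98.62 in parental and 90.74 and 96.80 in KO1 cells, followed by chr15:61848368-61848569 at 504 kb.

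Members were found on chromosomes 1 to 22 and X in unequal shares of the shared regions. The share was 10.5% on chromosome 20 (101 of 959 regions), 8.21% on chromosome 5 (179 of 2180) and 7.89% on chromosome 10 (150 of 1901). The lowest shares were 3.57% on chromosome 18 (25 of 700), 3.68% on chromosome 4 (63 of 1710), 4.35% on chromosome 21 (17 of 391) and 4.36% on chromosome X (42 of 963). Chromosome 4 thus had few members although the 2 strongest regions of the whole set lie near its start. On chromosome 20 the top 10% of a list took 12.6% and 13.6% of the regions in the parental and 14.4% and 14.7% in the KO1 libraries, and on chromosome 4 it took 7.10% and 6.30% in the parental and 6.96% and 7.16% in the KO1 libraries. MDA-MB-231 is an aneuploid line and the copy number of each chromosome was not measured here, so its part in these shares was not tested.

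**Figure D4:**
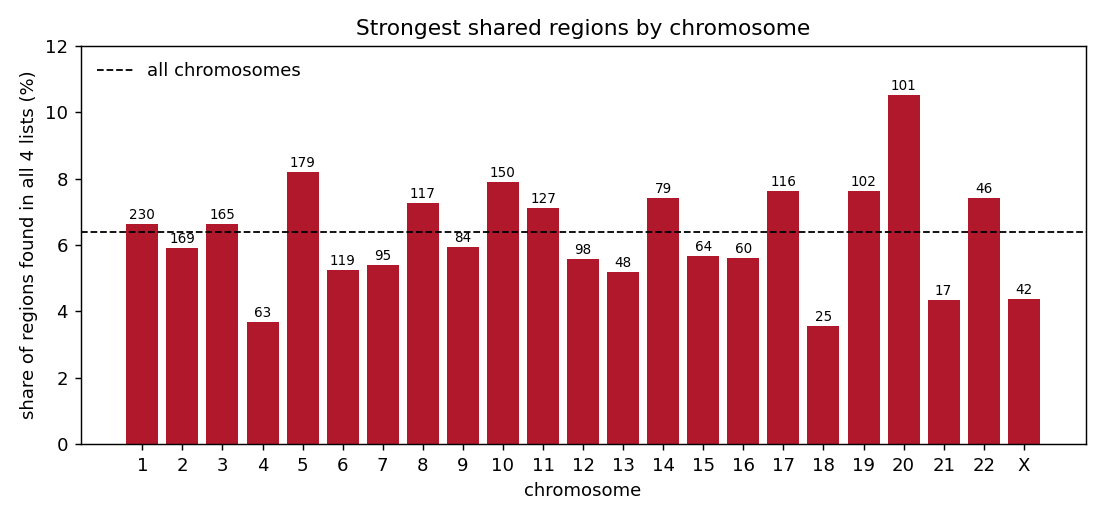
Bars give the share of regions found in all 4 lists that are strongest shared regions (%) on each chromosome, with the number of members above each bar and the share over all chromosomes, 6.40%, as a dashed line. Chromosome 20 is highest at 10.5%, and chromosomes 18 and 4 are lowest at 3.57% and 3.68%.

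In bins of 10 Mb with at least 30 shared regions, the share of members was 5.56% at the median of 287 bins. It was highest on chromosome 16 between 40 and 50 Mb, with 6 of 35 regions (17.1%), and on chromosome 2 between 0 and 10 Mb, with 11 of 68 (16.2%). Chromosome 11 between 30 and 40 Mb followed with 21 of 132 (15.9%), which include both chr11:34676025-34676483 and chr11:35187840-35188234. Chromosome 5 between 140 and 150 Mb had 35 of 243 (14.4%). In 13 bins no shared region was a member, among them chromosome 4 between 140 and 150 Mb with 104 shared regions and chromosome 18 between 60 and 70 Mb with 54.

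Within the set, the order of strength was less alike between libraries than over all shared regions. Across the 2296 members, Spearman's rho of the −log10 values was 0.50 for the parental pair, 0.51 for the KO1 pair and 0.44 to 0.48 for the pairs across genotypes. Across all 35861 shared regions it was 0.85, 0.84 and 0.77 to 0.78. These coefficients are across regions of the same libraries, which are not independent replicates, and the members span only the upper end of each list, so they are a description.

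The percentiles of members were close between genotypes, which the rule brings about by asking for 90 or above in every library. Their mean percentile was 96.3 and 96.7 in the parental libraries and 96.4 and 96.5 in the KO1 libraries, or 96.5 ± 0.320 and 96.5 ± 0.0361 (SD, n = 2 each). The median of KO1 minus parental over the members was -0.0373 percentile points, and it was 0.0581 for replicates 1 and -0.169 for replicates 2. The rule holds every member between 90 and 100 in each library, so differences cannot exceed 10 points. The KO1 libraries both exceeded both parental ones in 379 members (16.5%), beside 19.6% of all shared regions. Both lay below them in 430 members (18.7%), beside 22.5% of all shared regions. A share near that background is no result about the members.

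To compare strength without the upper limit of a percentile, each −log10 value was divided by the median of the shared regions in its list and taken to log2. On this scale KO1 minus parental had a median of 0.02 and an SD of 0.29 over members, with 1204 of 2296 above 0. In the comparison set 16268 of 33565 were above 0. The 5th and 95th percentiles of the difference were -0.47 and 0.48. A difference of more than 0.5 in either direction was seen in 192 members (8.36%), of which 100 were higher and 92 lower in KO1. In the comparison set 14173 of 33565 regions (42.2%) differed by more than 0.5. The rule removes regions that are weak in any library, and with them most that differ much between genotypes, so the narrow spread is a property of the choice. The region chr1:207063927-207064342, just outside the threshold, had a difference of 1.14. The difference of replicates 1 and that of replicates 2, which share no library, had Pearson's r of 0.11 across members. Across the comparison set it was 0.29. These are descriptions across regions, and the rule limits the spread of the members.

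**Figure D5:**
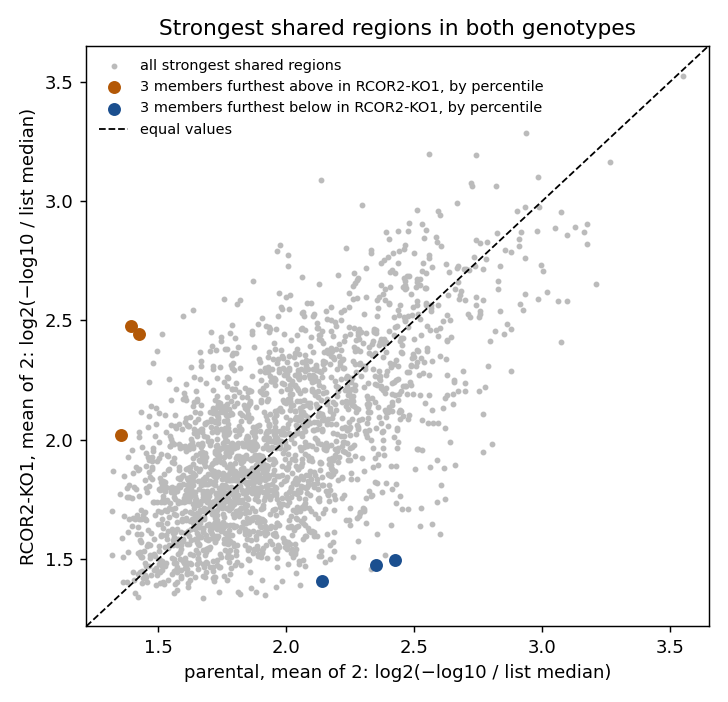
Each point is 1 of the 2296 strongest shared regions, placed by its mean log2 of the −log10 value over the list median in the 2 parental libraries (x axis) and the 2 RCOR2-KO1 libraries (y axis), with equal values on the dashed line. Coloured points are the 3 members furthest above (orange) and below (blue) in RCOR2-KO1 by percentile, and the cloud lies around the line with 1204 points above it.

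By percentile, the members furthest below in KO1 were chr20:42578880-42578945, chr20:48392392-48392565 and chr19:752593-752806. At chr20:48392392-48392565 the −log10 value was 119 and 140 in parental and 69.6 and 60.9 in KO1 cells, with percentiles of 99.20 and 99.15 against 92.21 and 92.17. The replicates were alike in each genotype and the genotypes did not overlap, with a scaled log2 difference of -0.88. At chr20:42578880-42578945 the values were 95.2 and 131 against 65.5 and 58.8, a scaled log2 difference of -0.73. At chr19:752593-752806 they were 105 and 176 against 78.0 and 56.0, a scaled log2 difference of -0.93.

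Furthest above by percentile were chr17:53872259-53872702, chr3:98690401-98690730 and chr5:135389484-135389564. At chr17:53872259-53872702 the value was 61.4 and 72.1 in parental and 130 and 131 in KO1 cells, a scaled log2 difference of 1.09. At chr3:98690401-98690730 it was 63.1 and 73.3 against 173 and 93.6, with percentiles of 91.85 and 91.57 against 99.83 and 98.06. The scaled log2 difference there was 1.02. At chr5:135389484-135389564 it was 59.0 and 71.3 against 110 and 81.7, a scaled log2 difference of 0.66. These 6 regions were picked for their difference, so it is not tested. Other members were further apart than some of them on the log2 scale, where the lowest difference was -0.996. The 2 members that differed by more than 1 were chr17:53872259-53872702 and chr3:98690401-98690730.

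Among chromosomes, chromosome 16 had the smallest share of members with a higher mean in KO1. Of its 60 members, 18 had a scaled log2 difference above 0, the median was -0.16, and both KO1 libraries were below both parental ones in 16 (26.7%) and above in 1 (1.67%). Over all shared regions these shares were 22.5% and 19.6%, so the share below is near the background and the share above is under it. The share above was also low on chromosome 21, with 0 of 17 members, chromosome 11, with 10 of 127 (7.87%), and chromosome 19, with 11 of 102 (10.8%). The share below was 16.5% on chromosome 11 and 13.7% on chromosome 19, both under the background. Compared with chromosome 16, the share below was higher on chromosome 15, with 22 of 64 members (34.4%), and alike on chromosome 13, with 13 of 48 (27.1%). On chromosome 16 the median of members was -0.11 for replicates 1 and -0.16 for replicates 2, and that of the other shared regions was -0.23. On chromosome 14 the direction was opposite, with 52 of 79 members above 0, a median of 0.09 in members and 0.08 in the others. On chromosome 19 the median was 0.04 in members and -0.13 in the others, and on chromosome 20 it was 0.04 and -0.05. Over the 89 bins of 10 Mb with at least 10 members, the median percentile difference of members and that of other shared regions in the same bin had Pearson's r of 0.27 and Spearman's rho of 0.16, a description over bins that share the same 4 libraries. Whether copy number differs between the parental cells and the knockout cells was not measured here, and its part in these chromosome-wide values was not tested.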

How the data were processed

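LSD1 CUT&RUN libraries of parental and RCOR2-KO1 cells (2 each) were analysed. Per the submitters' processing notes, Bowtie2 2.3.3.1, Picard, FastQC 0.11.2 and MACS2 2.1.0 were used with hg19. The deposited lists give 1 summit per peak, called in each library by itself, with the −log10 of a p or q value (which of them is not stated). Normal rabbit IgG was the input, and IgG files were not analysed here. Depth is unknown, so no counting interval is given.

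Python 3.11.15, pandas, numpy and scipy were used. Percentiles were taken over all summits of a list, with average ranks for ties. Summits of chromosomes 1 to 22 and X were joined within 500 bp. The steps were tested on simulated lists. Genotypes were compared over libraries by exact permutation tests, and members with other regions by exact sign-flip tests. The members and lists were chosen with earlier results of these data known. Regions named in the text are the 20 with the highest lowest percentile, the 3 just inside and 3 just outside the threshold of 90, and the 3 furthest above and below in KO1. The rule's members with most summits were tied. Isolated members, chains of members and counts within each list were added after seeing the data. The planned share of members at promoters needs an hg19 annotation and is not reported here. Alternatives were other joining distances and thresholds, lists cut to the shortest, each library left out, the summit nearest to the median position, and the replicate number as a block.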

Additional observations from a re-analysis of the deposited data

How the results depend on the processing

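The number of members depends on the threshold by construction, with 929 at percentile 95 and 5322 at percentile 80 in place of 2296. Leaving out 1 library and choosing members from the other 3 gave 2539 to 2684 members. The difference in summits per member was 0 to 0 in these settings. The difference in summit offset was 0.5 to 4.50 bp with 1 library left out, against 2.13 bp, and lowest without parental replicate 2. Without KO1 replicate 2 it was 4.50 bp. It was 0.5 bp at percentile 80, and positive in every alternative run. The median percentile difference was -0.212 to 0.0547 with 1 library left out, and -0.212 came without parental replicate 1. With the replicate number as a block, the differences were 0 summits and 2.13 bp (exact sign-flip permutation test, p = 0.5, the smallest that 2 pairs allow), and no call changed. The labels do not say whether libraries of equal number were handled together. The deviations of same-numbered libraries had Pearson's r of -0.0366 across members. The rule confines their percentiles, so this value cannot decide the question. Joining within 250 bp or 1000 bp gave 2040 and 2375 members, and lists cut to the shortest gave 2140. With the lists cut, the median percentile difference was 0.00132, against -0.0373 with the full lists. Promoter windows, protein-coding genes alone and removal of repeat-masked regions were not run, since they need an hg19 annotation or genome. The unknown depth limits all −log10 values.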
